A study of Mus musculus with 3 samples.

Results

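Described here are 10 genes of the hypoxia-inducible factor (HIF) pathway, taken by name from the 55211 genes measured in 3 cultures of Ba/F3: the factor subunits Hif1a, Epas1 and Arnt, the degradation gene Vhl, the oxygen-sensor genes Egln1, Egln2 and Egln3, and the target genes Bnip3, Vegfa and Ankrd37. They were listed by name and role and by no threshold on a measured value, though with earlier results of these data known. Ba/F3 is an established mouse blood-cell line that depends on interleukin-3 (IL-3), and the 3 samples were cultures harvested apart from each other, which form 1 group. All were kept in RPMI with fetal calf serum, penicillin-streptomycin and recombinant murine IL-3 under CO2, and no oxygen level, genetic change or drug is named in the labels. The series holds no hypoxic or treated arm, so levels, the order of the genes and the spread between cultures are what the data give.

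HIF is a pair of proteins, an oxygen-regulated α subunit (HIF-1α from Hif1a, HIF-2α from Epas1) and the stable partner ARNT. With oxygen present, the EGLN prolyl hydroxylases mark the α subunit, and the VHL ubiquitin ligase then has it destroyed. When oxygen is short, α accumulates, joins ARNT and switches on genes for glucose use, mitophagy and vessel growth, and also genes that feed back on the pathway, such as Egln1 and Egln3. Because α is controlled at the protein, its mRNA level does not report how much HIF was active.

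The 3 libraries held 32044889, 33880292 and 37180883 gene-assigned reads in cultures 1, 2 and 3, so that 1 read was worth 0.0312, 0.0295 and 0.0269 CPM (reads per 1e+06 reads of the culture). Where no read was found, the level can have been up to 0.0936, 0.0885 and 0.0807 CPM, the worth of 3 reads, counting error only. A gene was called detected at 1 CPM or more in every culture, which 19.9% of all genes and 45.9% of protein-coding genes met. Levels of different genes are compared as CPM per kilobase of merged exons, and ± is the SD over the cultures (n = 3). Nothing in the labels says more of the cultures than that they were separate, and p-values below measure only the spread between them, which may be technical. In bulk RNA, a gene read in fewer cells and a gene with less RNA per cell cannot be told apart. All 6 blood-cell markers checked (Csf2rb, Il3ra, Ptprc, Gata2, Spi1 and Runx1) were detected. Of the B lymphoid genes, Cd79a and Cd79b were detected and Ebf1 had no read. Of 6 endothelial markers Pecam1 was detected, which blood cells also express, and 0 of 6 fibroblast and 4 of 6 erythroid markers were. Reads of mitochondrially encoded genes made up 1.68%, 1.31% and 1.04% of cultures 1, 2 and 3.

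HIF binds DNA at a short core that reads ACGTG or GCGTG. Stretches before a RefSeq start site are shown for Bnip3, Ankrd37, Egln3 and Vegfa. These were the highest, the steadiest, a hardly read and the most variable gene of those below. Each is the 250 bases before the RefSeq start site in GRCm38.p6, 5′ to 3′ on the gene's strand (minus for all of these), with every ACGTG or GCGTG on either strand in capitals.
Bnip3, chr7:138909507-138909756: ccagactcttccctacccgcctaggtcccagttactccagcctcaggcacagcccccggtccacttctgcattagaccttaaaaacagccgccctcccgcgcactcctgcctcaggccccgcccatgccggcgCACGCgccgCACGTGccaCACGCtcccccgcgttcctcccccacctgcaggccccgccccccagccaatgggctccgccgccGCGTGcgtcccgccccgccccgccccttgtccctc
Ankrd37, chr8:45999851-46000100: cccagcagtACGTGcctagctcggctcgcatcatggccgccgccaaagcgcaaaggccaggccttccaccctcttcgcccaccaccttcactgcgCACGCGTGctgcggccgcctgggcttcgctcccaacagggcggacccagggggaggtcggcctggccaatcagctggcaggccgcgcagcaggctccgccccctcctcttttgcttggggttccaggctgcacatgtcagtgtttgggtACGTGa
Egln3, chr12:54203875-54204124: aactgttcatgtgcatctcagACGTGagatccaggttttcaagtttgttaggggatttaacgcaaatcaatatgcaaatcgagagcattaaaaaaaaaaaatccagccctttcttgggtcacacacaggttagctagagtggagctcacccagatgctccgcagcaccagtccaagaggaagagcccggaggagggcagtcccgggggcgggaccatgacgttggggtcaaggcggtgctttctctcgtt
Vegfa, chr17:46032378-46032627: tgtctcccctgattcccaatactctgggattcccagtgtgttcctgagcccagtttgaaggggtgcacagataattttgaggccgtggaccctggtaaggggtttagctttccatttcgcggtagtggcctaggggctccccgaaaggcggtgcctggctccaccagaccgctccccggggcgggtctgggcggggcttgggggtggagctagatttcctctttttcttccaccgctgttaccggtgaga

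The Bnip3 stretch held 5 matches, the furthest at base -117 and the nearest at -35, counted back from the start to the first base of the match. A pair of them, at -108 and -107, are the same palindrome read on both strands, CACGTG, which is also the E-box that MYC and other factors bind. Ankrd37 had 4 matches, at -241, -155, -152 and -6, of which the middle pair overlap. Egln3 had 1, at -229, and the outer Vegfa start had 0, while a second RefSeq start inside the Vegfa gene had 2. RefSeq windows were found for 9 of the 10 genes, all but Epas1. The Ankrd37 and Hif1a windows lie wholly inside the gene spans given below, downstream of the 5′ ends in the annotation used for the reads. Hif1a had 3 matches, Arnt 1, Vhl 0 and Egln1 2. The Hif1a matches at -135 and -134 are again the palindrome CACGTG read on both strands. Egln2 had 4 before its outer start and 1 before an inner one.

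Such short words are common. At least 1 match lay in 38.6% of 32851 promoter windows of the same length, and in 57.1% of the 10364 from detected protein-coding genes. The members had a match in 9 of their 11 windows. Of 65 windows of the hypoxia target genes listed further below, 73.8% held a match. Windows with 4 or more matches were 2.58% of all and 5.02% of those of detected genes; among the members these were Bnip3, Ankrd37 and the outer Egln2 start. A match is a string of letters in this window and not a binding site, and sites further away were not searched. In windows of protein-coding genes not detected, the share with a match was 32.2%, beside the 57.1% of detected ones. Single members went both ways. Bnip3, the highest, had the most matches. Egln3, hardly read in these cells, carried a match, and Vegfa, well read, carried none before its outer start.

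**Figure D1:**
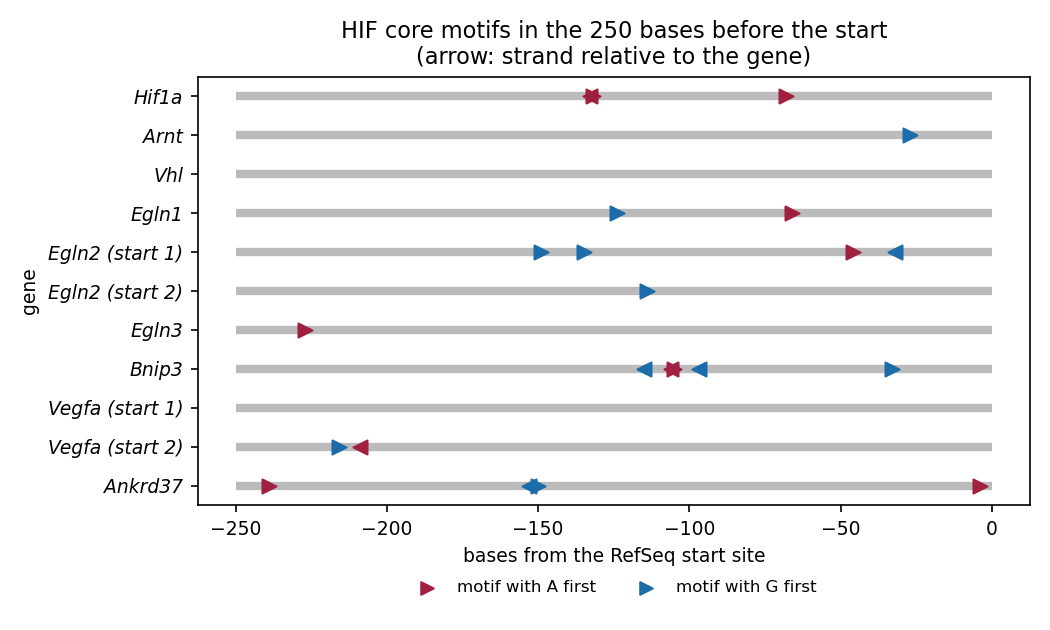
Position of each ACGTG (red) or GCGTG (blue) match in bases from the RefSeq start site, for 11 windows of 9 genes, with arrows for the strand relative to the gene. Bnip3 has the most matches (5), and Vhl and the outer Vegfa start have 0.

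Of the 10 genes, 8 were detected, and both others, Epas1 and Egln3, stood near the limit set by depth. The members fell in a wide order: Bnip3 was highest at 384 ± 11.3 CPM per kilobase, then Egln1 at 88.4 ± 5.11, Ankrd37 at 72.6 ± 0.555, Vegfa at 37.5 ± 4.98, Hif1a at 26.5 ± 0.628, Vhl at 14.6 ± 0.729, Arnt at 9.95 ± 0.498 and Egln2 at 9.77 ± 0.818. The median level over the 8 detected members was 32.0 CPM per kilobase, beside 9.39 over all detected protein-coding genes. Of the 9 pairs of neighbours in this order, 8 had ranges that did not overlap between cultures. One of these, Egln3 over Epas1, rests on length and not on reads in cultures 2 and 3, where each gene had 1 read (merged exons of 2662 and 5590 bases). The exception was Arnt over Egln2, with Arnt higher per kilobase in 2 cultures and Egln2 in culture 3. With 3 values a side the smallest exact two-sided p of a paired test is 0.25, so the order was not tested.

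The order near the top and middle depends on which exons count as length. Divided by the longest annotated transcript in place of merged exons, Ankrd37 (whose merged exons are 1539 bases and whose longest transcript is 927) came before Egln1, and Arnt (8007 and 4325 bases) came before Vhl. Bnip3 stayed first and Egln3 and Epas1 last under both lengths.

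**Figure D2:**
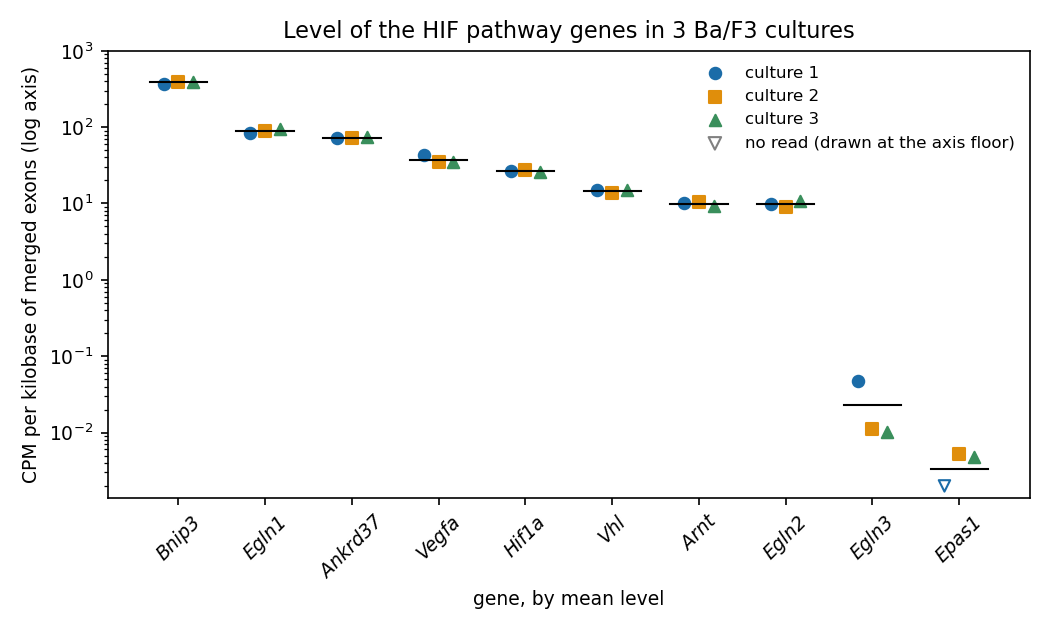
CPM per kilobase of merged exons (log axis) for the 10 genes in each culture, with the mean as a line. The 8 detected genes lie between 8.98 and 393, and Egln3 and Epas1 lie at or below 0.0469, with Epas1 unread in culture 1.

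Among the factor subunits, the α chain was read almost wholly from Hif1a. Hif1a (ENSMUSG00000021109, chromosome 12, 73901375 to 73947530, plus strand, GRCm38), which encodes HIF-1α, had 156, 160 and 152 CPM in cultures 1, 2 and 3. These values were within 1.05 times of each other. Epas1 (ENSMUSG00000024140, chromosome 17, 86753700 to 86833410, plus strand), which encodes HIF-2α, a form best known from endothelium, kidney and other tissues, had 0, 1 and 1 reads. Pooled over 103106064 reads, Epas1 lay at 0.0194 CPM (exact Poisson 95% interval 0.00235 to 0.0701). Per kilobase, Hif1a was 7625 times Epas1, with an exact binomial 95% interval of 2110.5 to 62968 from the reads of the pair.

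Hif3a, another α gene, whose products include inhibitors of HIF and which is not one of the 10, was detected at 1.43 ± 0.0585 CPM per kilobase. Hif1a made up 94.9 ± 0.209% of the summed level per kilobase of these α genes and Hif3a 5.13 ± 0.199%. Arnt (ENSMUSG00000015522, chromosome 3, 95434388 to 95497240, plus strand), the shared partner, had 80.9, 82.9 and 75.3 CPM, lowest in culture 3. Per kilobase of merged exons Hif1a was 2.66 ± 0.0749 times Arnt, and 1.80 ± 0.0505 times when the longest transcripts gave the lengths. Hif1a stood above Arnt in all 3 cultures.

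Reads of Hif1a could be shared in a small part only with other annotated genes. Of the 50-base stretches (the read length) in its transcripts, 5.74% also occur in another gene, mainly the antisense gene Gm15283, which averaged 0.00984 CPM. For Epas1, Arnt, Vhl, Egln1, Egln2 and Egln3 this share was 0%. The kit marks strand; the strand setting of the counting is not stated in the labels.

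The genes nearest to Hif1a in level over the 3 cultures were Pitrm1, Ahsa1 and Med21. Their root mean square differences from Hif1a were 0.00780, 0.00857 and 0.00893 on the log2(CPM per kilobase + 1) scale. Pitrm1 encodes a mitochondrial peptidase and stood at 26.5, 27.3 and 26.0 CPM per kilobase beside 26.5, 27.1 and 25.8 for Hif1a. The measure covers 3 cultures of 1 kind, so it ranks genes by a like level.

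The sensors were led by Egln1. Egln1 (ENSMUSG00000031987, chromosome 8, 124908587 to 124949324, minus strand), which encodes PHD2, the main hydroxylase acting on HIF-1α, had 298, 319 and 335 CPM. Culture 1 was lowest and culture 3 highest, 1.12 times apart. Egln2 (ENSMUSG00000058709, chromosome 7, 27158658 to 27166802, minus strand), which encodes PHD1, had 27.2, 25.1 and 29.7 CPM, lowest in culture 2. Per kilobase Egln1 was 9.07 ± 0.719 times Egln2 and took 90.0 ± 0.700% of the summed level of the 3 EGLN genes. Egln1 was above Egln2 in each culture, whichever length was used (6.83 ± 0.541 times with longest transcripts).

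Egln3 (ENSMUSG00000035105, chromosome 12, 54178981 to 54203860, minus strand), which encodes PHD3 and in many cell types is among the most strongly hypoxia-induced genes, had 4, 1 and 1 reads. That is a pooled level of 0.0582 CPM, with an exact Poisson 95% interval of 0.0214 to 0.127. Egln1 was 4053 times Egln3 per kilobase (exact binomial 95% interval 1862 to 11046). The 4 reads of culture 1 are too few to set it apart from the others.

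Vhl (ENSMUSG00000033933, chromosome 6, 113623959 to 113631633, plus strand), the part of the ligase that binds hydroxylated α, had 44.8, 41.4 and 45.5 CPM. The highest and lowest cultures were 1.10 times apart. Per kilobase Hif1a was 1.81 ± 0.134 times Vhl, and Egln1 was 6.04 ± 0.444 times Vhl. All 7 genes listed as partners of VHL in its ligase were detected, with a median of 18.0 CPM per kilobase. Nedd8, the modifier that activates the cullin, was highest at 88.1 ± 1.46, followed by the elongin genes Elob at 27.5 ± 4.42 and Eloc at 20.3 ± 0.584. Elob had 32.2, 38.3 and 44.6 CPM, lowest in culture 1.

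The target genes were the highest of the 10 apart from Egln1. Bnip3 (ENSMUSG00000078566, chromosome 7, 138890836 to 138909519, minus strand), a mitophagy receptor of the outer mitochondrial membrane, had 841, 881 and 889 CPM. Culture 1 was lowest, and the spread was 1.06 times. Its level per kilobase stood at percentile 99.1 of detected protein-coding genes, and it was 4.94 ± 0.0447 times that of its relative Bnip3l, a mitophagy receptor best known from red-cell maturation. The ratio stayed between 4.89 and 4.98 in the cultures.

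The Bnip3 value carries an uncertainty that its SD does not cover. Of the 50-base stretches in its transcripts, 47.2% also occur in 6 other annotated genes, 4 of them pseudogenes on chromosomes 14, 3 and X. The reads given to these were few: AC160336.1, a long noncoding RNA gene on chromosome 14 that shares most stretches, averaged 2.19 CPM, and the other 5 averaged between 0.0197 and 0.281. How the counting treated reads with several matches is not stated in the labels. Part of the Bnip3 exons, 22.3%, also lies under the antisense gene Gm45507, which averaged 0.204 CPM.

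Vegfa (ENSMUSG00000023951, chromosome 17, 46016993 to 46032369, minus strand), the main vessel growth factor gene, had 185, 148 and 149 CPM. Culture 1 was 1.25 times culture 2, and cultures 2 and 3 lay close together. Among other VEGF genes, Vegfb was at 26.9 ± 2.23 CPM per kilobase and Pgf at 10.6 ± 0.358, both detected. Vegfa took 49.9 ± 3.97% of the summed level of 5 VEGF ligand genes per kilobase, Vegfb 36.0 ± 3.80% and Pgf 14.1 ± 0.425%. Vegfc had 2 reads in all and Vegfd none. Of the receptors, Flt1, which encodes VEGFR1, was read at 2.63 ± 0.145 CPM per kilobase, and Kdr, which encodes VEGFR2, the main signalling receptor of endothelium, had 3 reads in all. Of the 9 genes of this list 3 were detected.

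Ankrd37 (ENSMUSG00000050914, chromosome 8, 45996902 to 46005707, minus strand), a small ankyrin-repeat gene and a known HIF-1 target, had 111, 111 and 113 CPM. It was the steadiest of the 8, with a coefficient of variation (CV) of 0.764% beside a counting error of 1.62% expected from its reads. Its locus is crowded: 22.7% of its exon bases lie under Lrp2bp and 3.70% under Ufsp2, both on the opposite strand. Lrp2bp averaged 0.760 CPM and Ufsp2 115, so without strand in the counting some reads of the pair could not be told apart.

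How far each gene differed between cultures was measured by a chi-square test over the 13141 genes that averaged 10 reads or more per culture, with Benjamini-Hochberg adjustment over all of them at a threshold of 0.05. Against counting noise alone 32.8% of genes were called, and 45% of those with a mean of at least 1000 reads. Of the 8 members tested, 5 were called by the chi-square test against counting noise: Vegfa (adjusted p = 8.7e-40), Egln1 (4.0e-15), Bnip3 (1.5e-10), Arnt (0.00379) and Egln2 (0.00508). Hif1a (adjusted p = 0.110), Vhl (0.0664) and Ankrd37 (0.867) did not pass the chi-square test, which does not show that they were equal. The 7 members with a mean of at least 1000 reads included 4 of these calls.

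Most of these calls ended when 1 culture was left out, which also leaves fewer reads in the test. Over all genes, 11.1%, 29.5% and 20.2% were called without culture 1, 2 and 3, beside 32.8% with all. Without culture 1 the Vegfa call ended (adjusted p = 0.852 by the same chi-square test), and so did that of Bnip3 (0.538). Without culture 3 those of Arnt (0.607) and Egln2 (0.275) ended, and without culture 2 that of Egln2 (0.135). Egln1 passed whichever culture was left out. Scaling by trimmed mean of M values added Vhl, with an adjusted p of 0.0366.

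Counting noise is a low bar at this depth, so the members were also set against the spread of genes in general. A negative binomial chi-square test with 1 dispersion for all genes (0.00533, a CV of 7.30%) called 3.47% of genes and 0 of the 8 members. Only Vegfa of the 8 had an unadjusted p under 0.05 by this test, and its adjusted p was 0.479. On simulated reads the test called 0% of 1.2-fold changes. Apart from Vegfa (1.25 times), the widest spread between cultures was 1.18 times, for Egln2, so the test had little power to call the members. With the dispersion set by level, which is smaller for well-read genes, 6.95% of genes were called, and Vegfa was the 1 member among them (adjusted p = 1.5e-05, negative binomial chi-square test). The CVs of the members ran from 0.764% for Ankrd37 to 13.3% for Vegfa with a median of 4.99%, beside a median of 5.56% over all genes tested and 3.35% over those with at least 1000 reads. Vegfa was thus the member that differed most between cultures, with culture 1 high, and Egln2 followed at 8.37%.

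Of the 5 members called against counting noise, Egln1, Egln2 and Bnip3 were highest in culture 3, Arnt in culture 2 and Vegfa in culture 1. Egln1 and Bnip3 had their lowest value in culture 1, where Vegfa had its highest. The mitochondrial read share and the library total also differed most between cultures 1 and 3; their part in these differences was not tested.

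**Figure D3:**
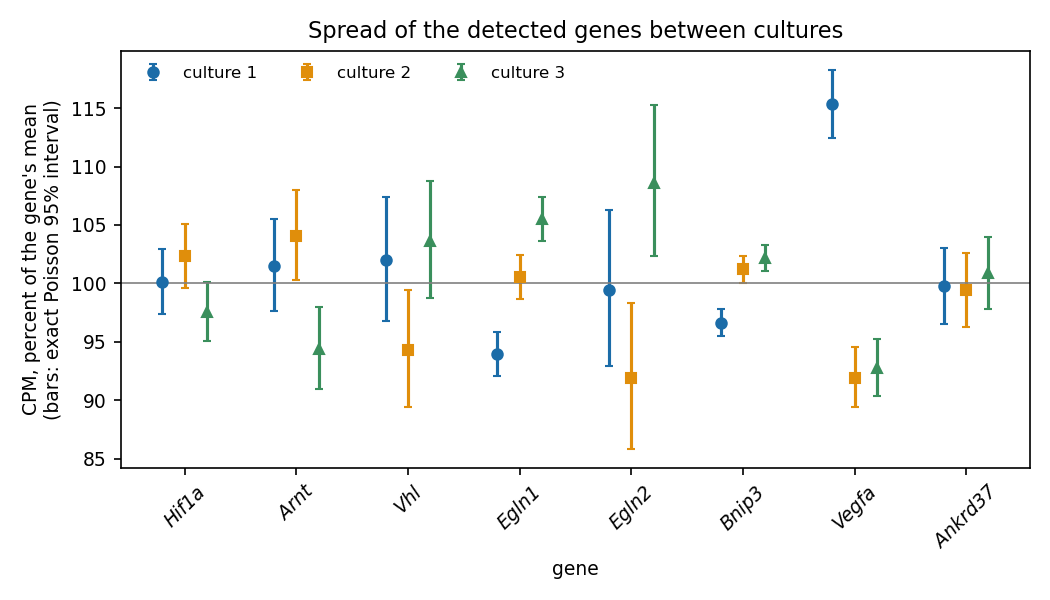
CPM of the 8 detected genes in each culture as a percent of the gene's own mean, with exact Poisson 95% intervals of the reads as bars. Vegfa stands apart in culture 1 at 115% beside 91.9% and 92.8%, and Ankrd37 lies between 99.4% and 101%.

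Beyond the 10 genes, 108 genes on 9 lists of the same pathway were measured, and 74 of them (68.5%) were detected, beside 45.9% of protein-coding genes. Of 62 hypoxia target genes 44 were detected, with a median of 86.1 CPM per kilobase. The chi-square test beyond the common spread called 2 of the 78 of these genes that had enough reads, Ing4 and Mif, beside 3.47% of all genes. With dispersion by level it called 7 of the 78, beside 6.95%. Against counting noise 46 of the 78 were called, beside 32.8% of all genes and 45% of those with a mean of at least 1000 reads. That test calls more genes where reads are many, and the list genes were not matched to others by reads.

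Glycolysis and glucose uptake targets were the highest list, with 18 of 19 detected and a median of 147 CPM per kilobase. Aldoa led at 2120 ± 88.1, then Pgk1 at 1616 ± 13.2 and Ldha, the lactate dehydrogenase gene, at 920 ± 26.7. Slc16a3, a lactate exporter gene, was not detected, at 0.749, 0.885 and 0.968 CPM. How many of their reads could match pseudogenes was not tested.

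Of the 13 feedback and oxygenase targets 9 were detected. Ero1l, whose product makes disulfide bonds in the endoplasmic reticulum, stood between 149 and 153 CPM per kilobase, the collagen prolyl hydroxylase gene P4ha1 at 96.2 ± 2.33 and the histone demethylase gene Kdm5c at 49.4 ± 2.89. Of the 4 not detected, P4ha2 and Lox had no read and Plod2 had 3. Of 8 mitochondrial targets 6 were detected, with Fam162a at 426 ± 9.21, Bnip3l at 77.9 ± 2.59 and the protease gene Lonp1 at 68.7 ± 2.63 CPM per kilobase. Ndufa4l2 (8 reads) and Cox4i2 (16 reads), both known for lowering or tuning respiration in hypoxia, were not.

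Stress and signalling targets were split, with 11 of 22 detected and 8 without a read in any culture. Mif, a cytokine gene, was highest at 758 ± 143 CPM per kilobase, then Ndrg1 at 257 ± 2.76 and the repressor gene Bhlhe40 at 144 ± 4.92. Adm, the adrenomedullin gene, averaged 0.410 ± 0.0633 CPM per kilobase and was not detected, Bhlhe41 had 1 read and Stc1 none. Mif was called beyond the common spread (adjusted p = 0.0417, negative binomial chi-square test), with 477, 535 and 683 CPM and culture 3 highest. That call ended without culture 2 (adjusted p = 0.268) or culture 3 (0.9999), and with no minimum of reads (0.0721), all by the same chi-square test.

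Among other HIF subunits and partners, Arntl, the circadian partner gene, stood at 2.52 ± 0.0187 CPM per kilobase and Hif3a as above, the 2 of 7 that were detected. Arnt2 averaged 0.0610, Sim2 0.0366, and Sim1 had no read. Of 16 regulators of α stability or activity 11 were detected. Rack1, a ribosome-bound scaffold, led at 615 ± 42.8 CPM per kilobase, then Cited2, which competes with HIF-1α for the coactivators CBP and p300, at 125 ± 7.87, and Os9 at 66.4 ± 0.821. Hif1an, which encodes the asparagine hydroxylase FIH that blocks coactivator binding, was read at 67.1, 60.3 and 61.4 CPM, and Egln1 was 9.31 ± 0.994 times Hif1an per kilobase; Hif1an was named after its values were seen. P4htm, Cited4 and Wtip were among the 5 not detected, with 5, 0 and 4 reads. Ing4, a chromatin reader also below 1 CPM in culture 3, was called beyond the common spread (adjusted p = 5.5e-06, negative binomial chi-square test) at 3.21, 1.65 and 0.968 CPM, and without culture 1 its adjusted p was 0.649. All 7 genes on the coactivator list were detected, led by Pkm at 706 ± 8.71, Ep300 at 11.0 ± 0.873 and Kat5 at 9.76 ± 0.496 CPM per kilobase. Reads were counted per gene, so splice forms of Pkm were not told apart.

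**Figure D4:**
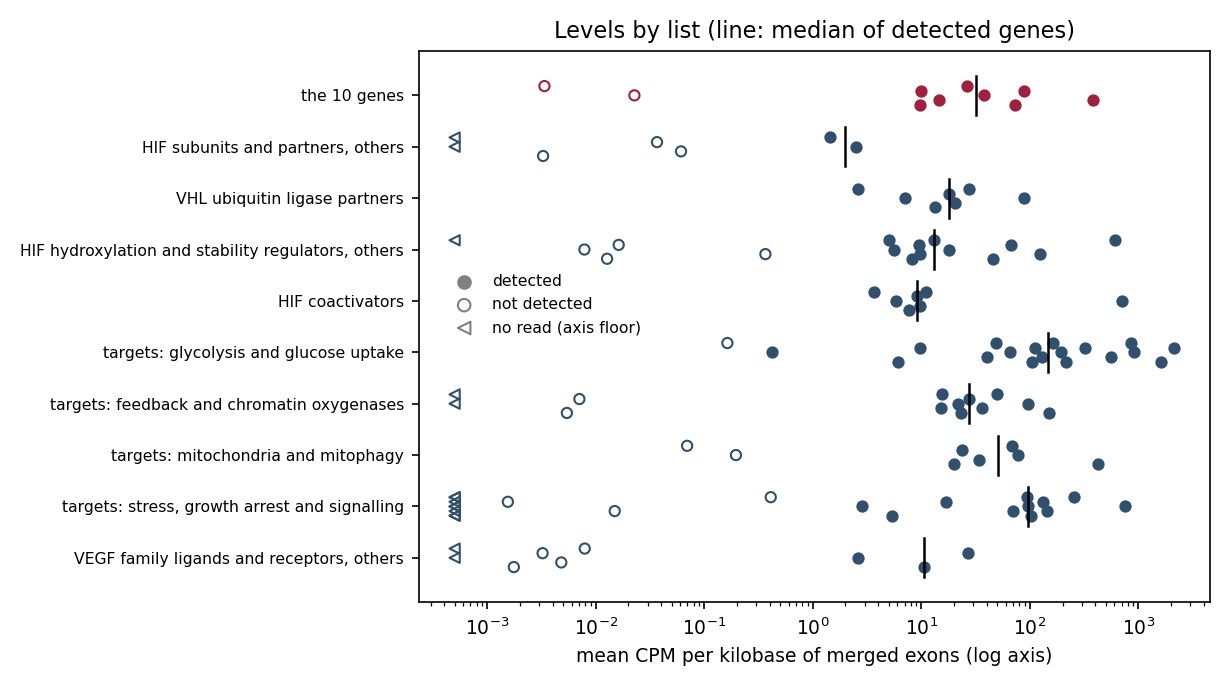
Mean CPM per kilobase (log axis) of each gene by list, with the 10 genes on top; filled points were detected, open points were not, triangles had no read, and lines are medians of detected genes. The glycolysis list has the highest median (147), and every list but the ligase partners and coactivators has members that were not detected.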

How the data were processed

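Polyadenylated RNA of 3 Ba/F3 cultures was sequenced as 50-base single-end reads from a strand-marking kit, per the labels' protocols. The authors aligned reads to GRCm38 with HISAT2 and counted them with GenSum, per the series' design text; versions, strand setting, multi-match handling and annotation were not given in the sources used here. In the deposited table the values are log2(reads per 10000000 + 1): on the linear scale each column sums to 10000000 and gives whole reads for 100% of entries within 0.01.

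On no row with reads (0 of 23001) do identifier and symbol name the same gene. Cultures 1 and 2 were read by identifier and culture 3 by symbol and coordinates, joined through GENCODE M21 (54879 rows by coordinates, 372 by symbol, 235 unmatched). The authors' average column mixes genes and was not used. Since the unit is log2, no count package was run; chi-square tests were run on the recovered reads in Python 3.11.15 with scipy 1.17.1. Reads carry no molecular identifiers, so intervals cover counting error only.

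The tests were tried on simulated negative binomial reads for 13141 genes: a dispersion of 0.003 was recovered as 0.00297 without changed genes and 0.00664 with 200 changed, where 4-fold changes in 1 culture were called for 100% and 1.2-fold changes for 0% of genes. With dispersion by level, 10% of the 1.2-fold changes were called.

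Members and lists were chosen with earlier results of these data known. Genes named from lists are the 3 highest per kilobase, the first 3 in list order not detected, and those called beyond the common spread. If a symbol had several genes, the one with most reads was taken. Promoter letters are from RefSeq (GRCm38.p6). Alternatives covered detection limits, scaling, read minimums, lengths, pseudocounts, dispersion and leaving out each culture.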

Additional observations from a re-analysis of the deposited data

How the results depend on the processing

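Detection held under every alternative run: 8 members were detected at 0.5 or 5 CPM, in at least 1 culture, and without any 1 culture, while list genes detected ranged from 73 to 77 beside 74. Members called against counting noise were 5, and 3 to 4 without 1 culture (11.1% to 29.5% of all genes were then called, with fewer samples in the test). Beyond the common spread 0 members were called, 0 under both scalings, both read minimums and without any 1 culture, and 1 (Vegfa) with dispersion by level. Over all genes, calls beyond the common spread numbered 456, 913 with dispersion by level, and 65, 178 and 223 without culture 1, 2 and 3; against counting noise they numbered 4304, and 1460 without culture 1 and 2655 without culture 3. Neighbouring pairs that kept the main order of levels without overlap numbered 8, 7 with the longest transcript and 5 with no division by length. Without 1 culture they numbered 8 to 9. Pairs that changed places were not counted, whether or not their ranges overlapped. Both scalings moved the CPM of each detected member by less than 0.1%, and leaving out a culture took it to between 0.923 and 1.04 times. Reading culture 3 on the deposited row of each identifier, where the symbol names another gene, took the mean over the 3 cultures to 0.956 to 1.05 times. Culture 3 alone moved further for some members. It rose for Arnt (87.0 CPM in place of 75.3), Vegfa (167 in place of 149) and Vhl (49.7 in place of 45.5). It fell for Egln2 (26.1 in place of 29.7). Why the values lay this near was not tested, and their nearness is no check of the join. The 3 genes nearest to Hif1a were the same with pseudocounts of 0.1 and 5. No paired analysis was possible because the series has 1 group. Depth limits what can be said of Epas1 and Egln3, with 2 and 6 reads in all.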
